A study of Rattus norvegicus with 58 samples.

Results

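In rats with pristane-induced arthritis, 281 genes of the synovium were at least 2 log2 units lower in untreated arthritic libraries (PIA) than in libraries from naive rats, and 100 of these had come back least by day 5 of the time course. These 100 genes are described here. They were taken from the 16879 identified genes of the deposited log2 table, by group means. A gene had to have a naive mean of at least 3 and a naive mean at least 2 above the PIA mean. The 281 genes that met both conditions were ranked by D, the average of the 2 day 5 group means (saline and RTD-1) minus the PIA mean, and the 100 with the lowest D were kept. The other 181 lost genes serve as the comparison. The genes were chosen by their measured levels in Naive, PIA and both day 5 arms, so every difference among those 4 groups is given as a description with no test. Tests were made on the 24 arthritic libraries of days 1 and 3 and the 10 libraries from healthy rats, none of which the choice used.

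The synovium is the thin membrane that lines a joint, a layer of fibroblast-like and macrophage-like cells over loose tissue with blood vessels and fat. In arthritis the lining thickens and fills with immune cells, so that a gene active in the resting membrane or the tissue beside it can fall in bulk RNA. Fewer cells of a type and less RNA of a gene per cell cannot be told apart in such samples. RTD-1 is rhesus theta-defensin 1, a small cyclic peptide from macaque leukocytes that is studied for its anti-inflammatory action.

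Female DA/OlaHsd rats had received 250 µl of pristane, an adjuvant oil, at 6 to 8 weeks of age. Time 0 was the day after each rear limb had a score of at least 3. The arthritic groups were PIA (n = 4, no arm or day named in its labels), PIA_1d_Saline and PIA_1d_RTD-1 (n = 4 each), PIA_3d_Saline and PIA_3d_RTD-1 (n = 8 each), and PIA_5d_Saline and PIA_5d_RTD-1 (n = 8 each). RTD-1 was given under the skin at 5 mg/kg in saline, and the saline groups received saline alone. The groups without arthritis were Naive (n = 4), Healthy_3d_RTD-1 (n = 5) and Healthy_5d_RTD-1 (n = 5), the last pair having received RTD-1 for 3 or 5 days. A healthy saline group was not analysed here. The labels do not give the age at sampling or say which libraries came from which animal.

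The files name genes by Ensembl identifier only, and the reference table used here held no rat Ensembl identifiers to match them with. Gene symbols and roles are therefore not given, and the tissue was not checked against marker genes. Genes are called by their rank in D, with the identifier for rank 1 and rank 8. Values are normalized reads, the recovered whole reads of a library scaled to a common depth, that of the median library, and are not divided by gene length, so they are compared between libraries for 1 gene and not between genes. The number of reads in genes lay between 464693 and 7716834. All 10 healthy RTD-1 libraries were deep, with 4437281 to 7716834 reads, and 3 saline libraries had 4512069 to 6415288. The remaining libraries had at most 3753844, and 2 libraries of PIA_3d_RTD-1 (replicates 6 and 8) had 464693 and 935255.

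The rule required a loss from Naive to PIA of at least 2 log2 units. In 97 of the 100 genes every PIA library was below every naive library, against 168 of the 181 other lost genes and 10.5% of all genes tested. Among the 100 the ranges overlapped in ranks 22, 45 and 73. On the deposited log2 scale the median over the 100 genes was 5.36 in Naive, 2.55 in PIA, 2.56 in PIA_5d_Saline and 2.69 in PIA_5d_RTD-1. The fall from Naive to PIA ran from 2.01 to 5.87 log2 units, with a median of 2.70, or 6.49-fold. It was at least 4 log2 units in 16 genes and below 3 in 69. Among the 181 other lost genes the fall was larger, with a median of 3.09. There it was at least 4 in 48 genes and below 3 in 88. The PIA mean enters both the fall and D, so the choice itself bears on this difference. Together the 100 genes took 4.15% to 4.93% of the reads in each naive library and 0.264% to 0.535% in each PIA library. At day 5 that share was 0.296% to 0.573% with saline and 0.256% to 1.38% with RTD-1. The naive and day 5 ranges did not overlap.

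D ran from -1.76 to 0.39, with a median of 0.12. In 34 genes it was below 0, which means that the day 5 mean was lower than the mean in PIA, and in 6 it was below -0.5. The other 66 genes were level with PIA or slightly above it. Of the 100 genes, 52 were below PIA in the saline arm at day 5, 29 in the RTD-1 arm and 24 in both. The last genes inside the limit had a D of 0.388 and 0.392, and the first outside had 0.395 and 0.408, so the limit falls at no gap. Among the 181 other lost genes D had a median of 0.88 and reached 3.82. The deposited table holds 0 reads as 0.9 of a read, which sets a floor that depends on depth, but 83 of the 100 genes had a read in every PIA and day 5 library. In 5 genes at least 4 of the 16 day 5 libraries had 0 reads.

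A single library set the place of rank 40. In replicate 1 of PIA_5d_Saline, 1 of the 3 deep saline libraries, it had 4.13 normalized reads, and in the other deep ones (replicate 2 of PIA_1d_Saline and replicate 4 of PIA_3d_Saline) 1.59 and 1.69. The other 17 saline libraries lay between 195.8 and 1725 and the deep healthy libraries between 1704 and 3975, so the 3 deep saline libraries stood far below both. Ranks 13 and 54 were likewise lowest in these 3 libraries, at 5.07 to 10.6 against at least 89.9 elsewhere with saline, and at 9.53 to 22.8 against at least 40.7. These 3 of the 100 genes compare with 4.25% of all genes tested. Without replicate 1 of PIA_5d_Saline, D rose from 0.05 to 0.49 for rank 40, from -0.27 to 0.01 for rank 13 and from 0.18 to 0.38 for rank 54. Ranked on that D, 98 of the 100 genes were kept, and rank 40 and rank 96 were lost. All 3 genes were chosen for mention after their values were seen, and what sets these libraries apart was not tested.

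**Figure D1:**
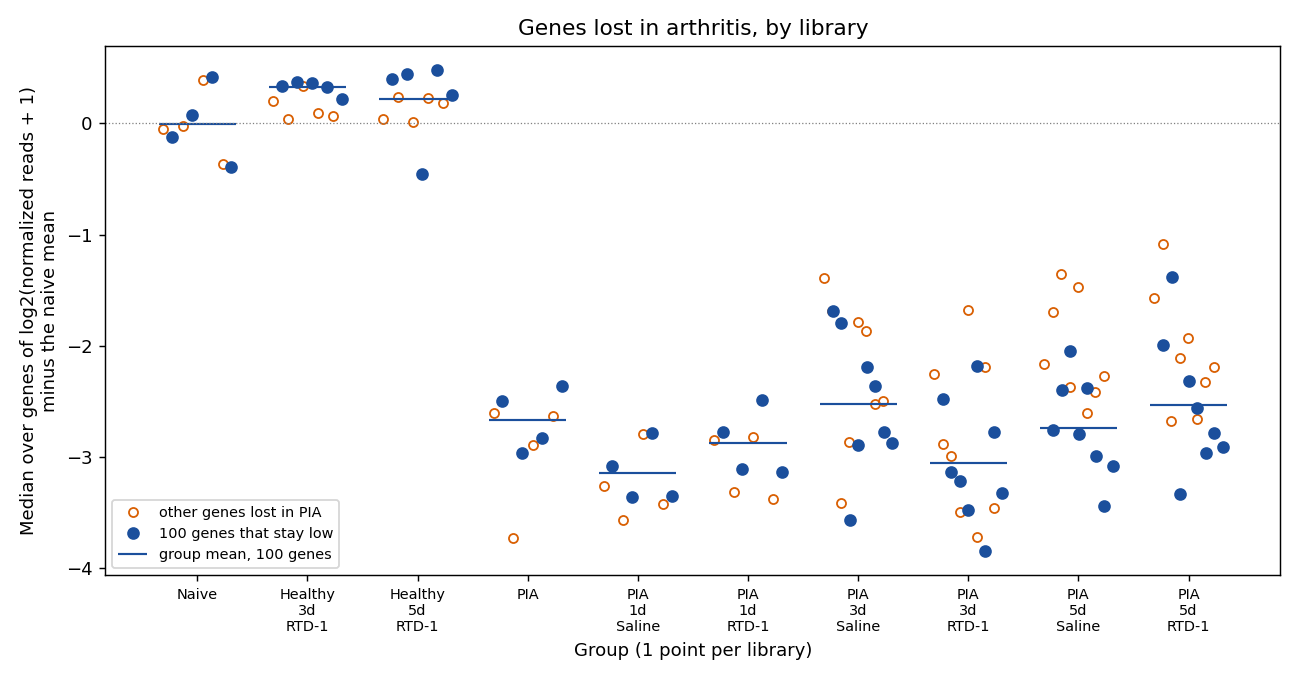
Each point is 1 library, and the y axis is the median over genes of log2(normalized reads + 1) minus the naive mean, for the 100 genes (filled) and the 181 other lost genes (open). Lines mark the group means of the 100 genes. The filled points of naive and healthy RTD-1 libraries lie between -0.46 and 0.48, and those of the arthritic libraries between -3.85 and -1.38.

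Rank 1, ENSRNOG00000032669, had the lowest D. Its normalized reads in the 4 naive libraries were 53.3, 61.5, 75.8 and 66.7, and in the 4 PIA libraries 5.64, 10.9, 2.23 and 12.5. At day 5 the lowest, median and highest values were 0, 0.750 and 3.85 with saline and 0, 1.74 and 7.69 with RTD-1, and 6 of the 16 day 5 libraries had 0 reads. At day 5 the gene was near the level of 1 read. It had fallen in arthritis and was lower still at day 5, as the rule and its place in D require. In PIA_3d_Saline it ranged from 0 to 49.5 around a median of 5.17, and the high value came from replicate 2 alone. All 8 libraries of PIA_3d_RTD-1 lay between 0 and 6.999, and 4 of them had 0 reads.

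Rank 8, ENSRNOG00000045797, showed the deepest loss of the 100 genes. Its naive libraries held 441, 840, 1008 and 506 normalized reads, and its PIA libraries 5.64, 20.9, 11.1 and 12.5. The mean fell from 698.6 ± 270.1 (SD, n = 4) to 12.5 ± 6.30 (SD, n = 4). With saline its lowest, median and highest values were 2.50, 8.55 and 19.2 at day 5. With RTD-1 at day 5 they were 1.08, 11.9 and 72.3, and the highest value, from replicate 2, was still below every naive library.

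Rank 6 was even between libraries after the loss. It had 1001, 2923, 2980 and 1743 normalized reads in Naive, and 46.2, 62.6, 63.5 and 71.0 in PIA. At day 5 it stood at 43.8 ± 10.1 (SD, n = 8) with saline and 43.4 ± 13.6 (SD, n = 8) with RTD-1. No arthritic library at any day exceeded 93.4.

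Rank 18 took the most reads of the 100 genes, with 23.3% of their reads in Naive. It had 14391 to 25691 normalized reads in Naive and 673 to 2117 in PIA, a loss of 94.0% of the mean. At day 5 it ranged from 509 to 2013 with saline and from 427 to 3622 with RTD-1, well below the naive range. The 5 genes with the most reads, gene length not taken into account, held 49.3% of the reads of the list, so the share of reads above rests largely on a few genes and the medians over genes do not.

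The genes were otherwise even between naive libraries. The ratio of the highest to the lowest naive library had a median of 2.08 over the 100 genes and was below 2 in 44. A pair of genes, singled out after their values were seen, met the rule through 1 naive library each. Rank 45 had 12425, 2.88, 3.99 and 96.9 normalized reads in the 4 naive libraries, and rank 73 had 128, 8.65, 8.98 and 5387. In both genes the lowest naive libraries lay within the range of the PIA libraries, which reached 7.80 for rank 45 and 290.8 for rank 73. The other 98 genes had no naive library above 4 times the next.

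**Figure D2:**
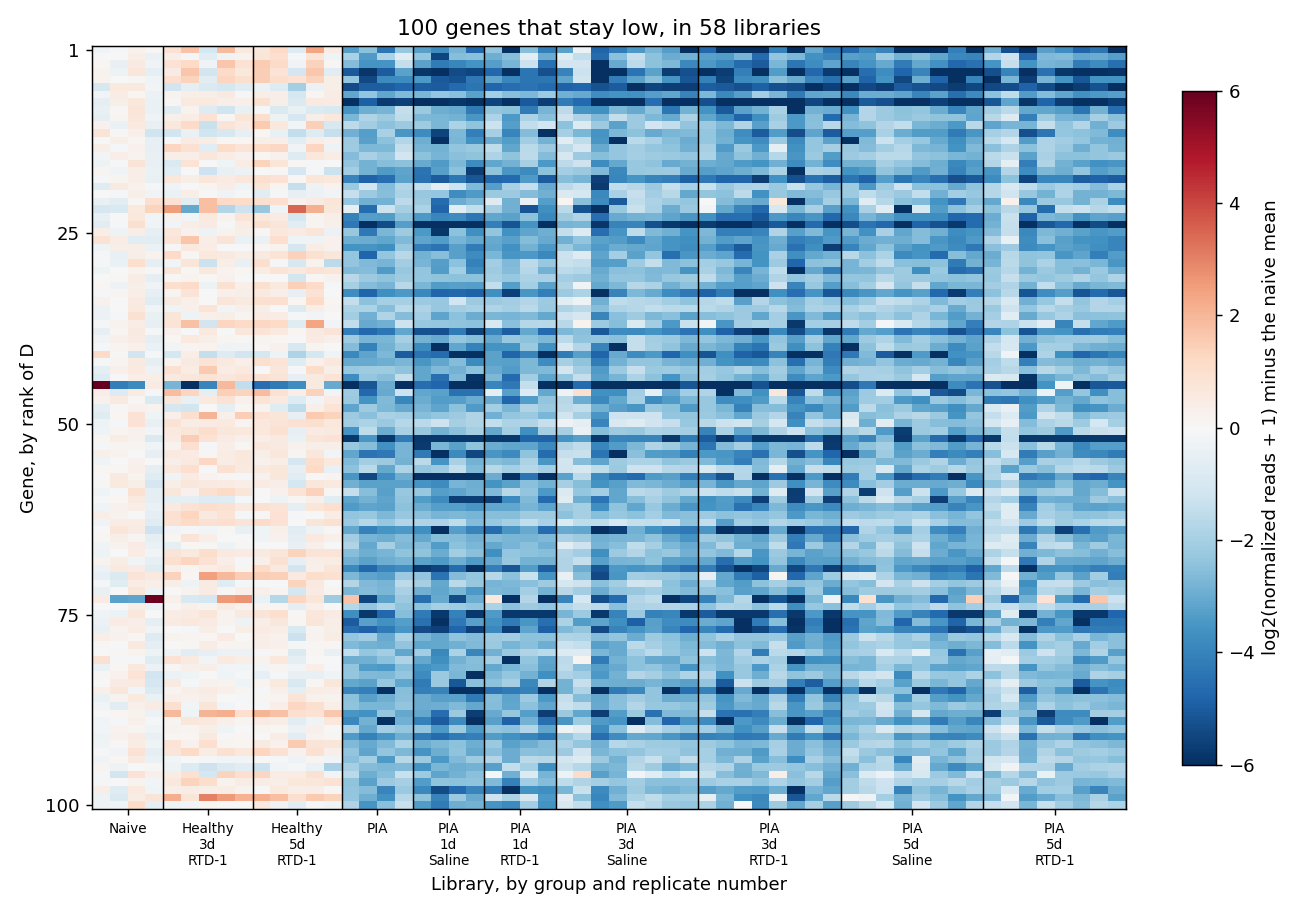
Rows are the 100 genes by rank of D and columns the 58 libraries by group and replicate number. Colour is log2(normalized reads + 1) minus the naive mean of the gene, and differences beyond 6 in either direction take the end colours. Naive and healthy RTD-1 columns are pale, arthritic columns are blue, and the interrupted lines at ranks 22, 45 and 73 are genes uneven between healthy or naive libraries.

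At day 5 the RTD-1 arm was slightly above the saline arm in 76 of the 100 genes and below it in 24, with a median difference of 0.19 log2 units. Both arms entered D, so this is a description. The shares of all genes and of the other lost genes above saline at day 5 were not counted. Averaged over the 8 libraries of each arm, the median over the 100 genes against naive was -2.74 with saline and -2.53 with RTD-1. For the other lost genes it was -2.04 and -2.07, and for all genes 0.09 and 0.04. The RTD-1 libraries were uneven. Their median over the 100 genes against naive was -1.38 in replicate 2 and -1.99 in replicate 1, while the other 6 lay between -3.33 and -2.32. The 8 saline libraries lay between -3.44 and -2.04.

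Whether the genes were also low in arthritic libraries that the choice did not use was tested at day 3, where arthritic and healthy rats had both received RTD-1 (5 mg/kg). All 100 genes passed the filter on low values, which a gene can pass through its naive and healthy libraries alone. Of the 100, 99 were lower in PIA_3d_RTD-1 than in Healthy_3d_RTD-1 (limma, Benjamini-Hochberg adjusted p under 0.05) and none was higher. Among all 13062 genes tested, 30.6% were lower and 16.8% higher. The median log2 change of the 100 genes was -3.39, or 10.5-fold lower, against -0.20 for all genes and -2.97 for the 181 other lost genes, of which 175 were lower. The change ran from -7.42 to -1.52, exceeded 3 log2 units in 71 genes and 5 in 13, and was smaller than 2 in only 2.

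The separation also held library by library. In 90 of the 100 genes every PIA_3d_RTD-1 library was below every Healthy_3d_RTD-1 library, against 16.2% of all genes tested and 147 of the 181 other lost genes. Over all 24 arthritic libraries of days 1 and 3 and all 10 healthy RTD-1 libraries, 77 of the 100 genes separated fully, against 7.54% of all genes and 122 of the 181. Of the 100 genes, 72 had a read in each of those 24 arthritic libraries, and 8 had 0 reads in at least 6 of them.

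Rank 8 (ENSRNOG00000045797) changed most. Its 5 Healthy_3d_RTD-1 libraries had 684, 975, 1005, 836 and 802 normalized reads, and the 8 PIA_3d_RTD-1 libraries had a lowest value of 0, a median of 4.40 and a highest of 15.8. The groups were far apart, and the limma log2 change was -7.42 (SE 0.669, adjusted p = 5.82e-13). Rank 1 (ENSRNOG00000032669) had 116, 214, 30.7, 242 and 96.6 normalized reads in the healthy libraries, above all 8 arthritic ones, and a limma log2 change of -5.83 (SE 0.661, adjusted p = 1.32e-10).

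The gene of rank 24 had 0 reads in all 4 PIA_1d_Saline libraries, 0 to 4.20 normalized reads in PIA_3d_RTD-1 and 115 to 184 in Healthy_3d_RTD-1. Its log2 change at day 3 was -6.36 (limma, SE 0.677, adjusted p = 2.40e-11). Rank 6 had 899.8 to 1337 normalized reads in Healthy_3d_RTD-1 and 19.6 to 65.6 in PIA_3d_RTD-1, a change of -4.49 with the lowest adjusted p of the 100 genes (limma, 2.97e-20). Rank 18 had 25248 to 31859 and 380 to 1608, a change of -5.32 (limma, adjusted p = 1.89e-15). In these genes the healthy and arthritic ranges lay at least 1 order of magnitude apart.

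Rank 22, named because it was the only gene of the 100 not called, was uneven between healthy libraries. It overlapped between Naive and PIA as well, with 35.6, 38.4, 107.7 and 182.3 normalized reads in Naive and 47.3, 1.99, 29.0 and 17.3 in PIA. Its Healthy_3d_RTD-1 libraries had 411, 7.76, 250.9, 20.5 and 30.0 normalized reads, and its PIA_3d_RTD-1 libraries ran from 1.77 to 64.1. The ranges overlapped, and the log2 change was -2.24 (limma, adjusted p = 0.0517). Over the alternatives its adjusted p ran from 0.0171 to 0.225.

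Depth differed between the 2 sides, since every healthy library was deeper than every PIA_3d_RTD-1 library. With each library thinned to at most 1500000 reads, 99 of the 100 genes were again lower and the median was -3.42. Of all 13157 genes tested on the thinned reads, 3716 were lower. Without the 2 shallow libraries of PIA_3d_RTD-1, 99 of the 100 were lower and the median was -3.13, beside 3063 of 13052 genes tested. TMM scaling moved the median of all genes from -0.20 to -0.06 and their calls from 4002 lower and 2194 higher to 3615 and 3087, while the same 99 of the 100 genes were called lower. With only replicates 1 to 4 of the day 3 arthritic groups 98 of the 100 were lower, beside 2823 of 13018 genes tested. With only replicates 5 to 8, 99 of the 100 were lower, beside 4289 of 12981 genes tested.

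**Figure D3:**
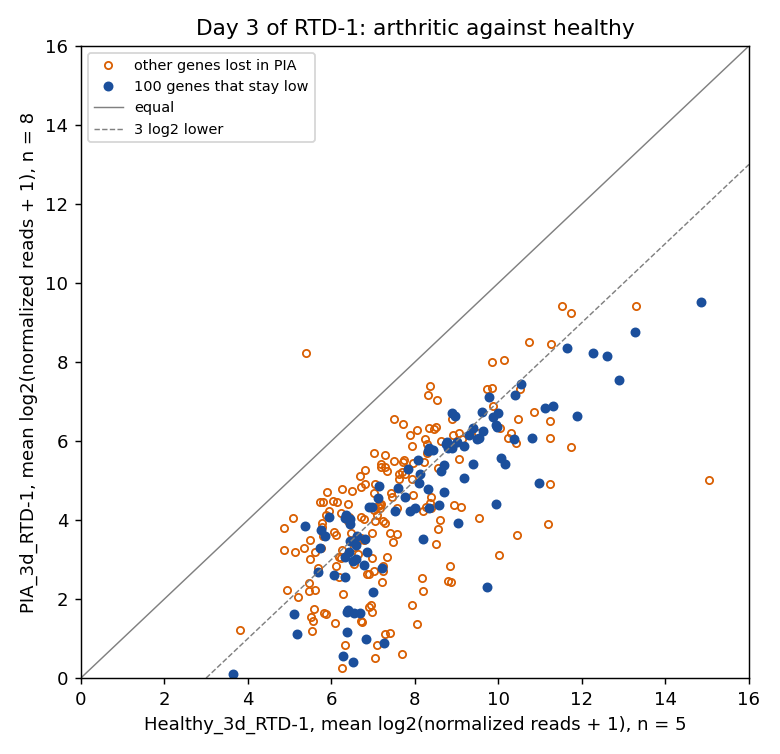
Each point is 1 gene, with its mean log2(normalized reads + 1) in Healthy_3d_RTD-1 (x axis, n = 5) against PIA_3d_RTD-1 (y axis, n = 8). Filled points are the 100 genes and open points the 181 other lost genes. All 100 lie under the line of equality, and 71 lie more than 3 log2 units under it.

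No gene of the 100 passed the test between RTD-1 and saline at day 3. All but 4 were nevertheless lower in PIA_3d_RTD-1 than in PIA_3d_Saline in their fitted change (96 of 100, against 54.2% of all genes tested and 92.8% of the 181 other lost genes). The median log2 change was -0.59, against -0.03 for all genes and -0.65 for the other lost genes. By limma with Benjamini-Hochberg adjustment 0 of the 100 genes were called, where 0.00766% of all genes (1 gene) were called lower and 0% higher. At an unadjusted p under 0.05, 41 of the 100 were lower and none was higher, against 7.73% of all genes in either direction. limma voom called 0 as well.

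Rank 10 had the lowest adjusted p of the 100 genes between these arms. Its 8 PIA_3d_RTD-1 libraries had a lowest value of 9.81, a median of 24.5 and a highest of 67.4 normalized reads. In the 8 PIA_3d_Saline libraries these were 35.6, 72.7 and 126. The ranges overlapped, and the log2 change was -1.40 (limma, SE 0.343, adjusted p = 0.215). For rank 1 the change was -1.50 (limma, adjusted p = 0.462) and for rank 8 it was -1.27 (limma, adjusted p = 0.578). Of the 10 genes with the lowest D, 9 were lower with RTD-1 in the fitted change, rank 6 by as little as -0.02, and rank 7 differed by 0.26.

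A few libraries moved with this difference. Of the 24 arthritic libraries of days 1 and 3, replicate 1 or 2 of PIA_3d_Saline held the highest value for 73% of the 100 genes, against 12.7% of all genes tested and 66.9% of the other lost genes. Their medians over the 100 genes against naive were -1.69 and -1.80, and the other 6 saline libraries of day 3 lay between -3.57 and -2.19. On the RTD-1 side the shallow replicates 6 and 8 had medians of -3.85 and -3.32 and held 0 reads in 21 and 9 of the 100 genes. Without these 2 shallow libraries the median difference between the arms was -0.33 and 84 genes were lower, beside a median of 0.11 over all genes. Within replicates 1 to 4 the median difference was -0.60, beside 0.16 over all genes. Within replicates 5 to 8 it was -0.52, beside -0.21 over all genes. Leaving out 1 library at a time gave medians from -0.71 to -0.42, the latter without replicate 2 of PIA_3d_Saline. The part of these libraries in the difference was not tested further.

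At day 1 the median difference was above 0, for the 100 genes and for all genes alike, and again no gene passed. The RTD-1 libraries were above saline in 81 of the 100 genes, against 73.9% of all genes and 65.2% of the other lost genes. The median log2 change was 0.42, against 0.16 for all genes and 0.21 for the other lost genes. limma called 0 of the 100 genes, and 0% of all genes in either direction. At an unadjusted p under 0.05, 2 of the 100 were higher and none was lower, against 4.69% of all genes in either direction, and the lowest adjusted p among the 100 was 0.912. TMM scaling brought the median of all genes to 0.00 and that of the other lost genes to 0.05. That of the 100 became 0.27, with 70 of them higher. Without replicate 3 of PIA_1d_RTD-1 the median was 0.27.

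The change in the RTD-1 difference between day 1 and day 3 was tested in the same fit, as an addition after the data were seen. The difference at day 3 minus that at day 1 was below 0 in 96 of the 100 genes, with a median of -1.06, against -0.19 for all genes and -0.84 for the other lost genes. By limma 0 of the 100 were called, where 0.00766% of all genes were called lower and 0% higher, and the lowest adjusted p among them was 0.467. At an unadjusted p under 0.05, 26 of the 100 were lower and none was higher, against 5.32% of all genes.

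**Figure D4:**
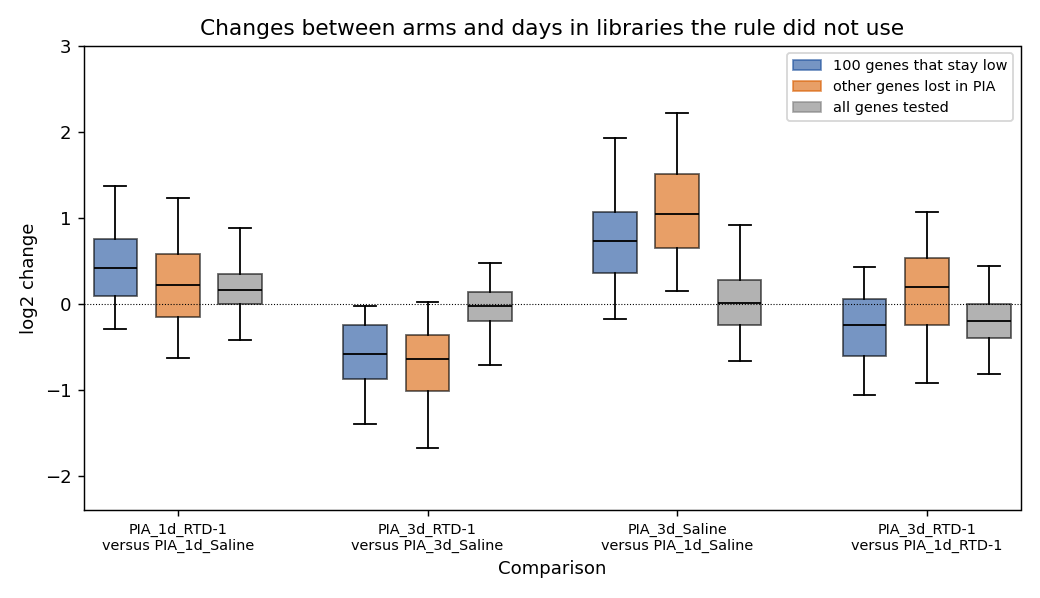
Boxes show the log2 changes of the 100 genes, the 181 other lost genes and all genes tested in 4 comparisons, with the median, quartiles and whiskers from the 5th to the 95th percentile of genes. The 100 genes centre on 0.42 and -0.59 between the arms at day 1 and day 3, and on 0.73 and -0.24 between the days with saline and with RTD-1.

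From day 1 to day 3 the saline libraries had higher values in 94 of the 100 genes, against 50.4% of all genes and 96.1% of the other lost genes. The median log2 change was 0.73, against 0.00 for all genes and 1.04 for the other lost genes. limma called 0 of the 100 genes, while 0.0612% of all genes were called lower and 0.115% higher. Of the 181 other lost genes, 3 were called higher. At an unadjusted p under 0.05, 34 of the 100 were higher and 2 lower, against 14.4% of all genes in either direction. The count of adjusted calls depended on the setting, and up to 6 of the 100 were called higher, with TMM scaling. With that scaling 33 of the 181 other lost genes and 267 of 13073 genes tested were called higher.

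Rank 57, chosen after its values were seen because it came nearest to a call, had 0 reads in all 4 PIA_1d_Saline libraries. In PIA_3d_Saline it had a lowest value of 2.43, a median of 6.16 and a highest of 28.0 normalized reads, a mean of 8.27 ± 8.30 (SD, n = 8). The mean was at least 12.2-fold higher than the floor of 0.678 that 3 reads over the day 1 group would give. Without replicate 2, which held the 28.0, the mean was 5.45 (n = 7), at least 8.04-fold higher. limma gave an adjusted p of 0.0515, and over the alternatives it ran from 0.0111 to 0.185. Even its highest day 3 value was below all 4 naive libraries, which started at 51.0. Rank 24 and rank 52 also had 0 reads throughout PIA_1d_Saline and day 3 means at least 10.5-fold and at least 3.24-fold higher than that floor, and neither passed the test.

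With RTD-1 the days differed little. Day 3 was below day 1 in 74 of the 100 genes, with a median log2 change of -0.24 against -0.20 for all genes and 0.20 for the other lost genes. The upper quartile of the change was -0.01 over all genes and 0.06 over the 100, so a fall was about as common among all genes. limma called 0 of the 100 and 0% of all genes in either direction, and the lowest adjusted p among the 100 was 0.309. At an unadjusted p under 0.05, 6 were lower and 1 was higher, against 12.1% of all genes. TMM scaling brought the median of all genes to -0.02 and that of the 100 to -0.09, with 58 of them lower. Without the 2 shallow day 3 libraries the median was -0.02 and 55 were lower.

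The 2 courses share no libraries, and their values are set side by side here. In 70 of the 100 genes the fitted change from day 1 to day 3 was above 0 with saline and below 0 with RTD-1, against 32.4% of all genes tested and 35.4% of the other lost genes, and in 4 it was below 0 in both. With TMM scaling the 70 became 54, and the shares of all genes and of the other lost genes were not counted on that scaling. Rank 6 and rank 7 belonged to the 4. For rank 6 the changes were -0.59 with saline and -0.78 with RTD-1, and for rank 7 they were -0.71 and -0.79, none of which passed (limma, adjusted p from 0.266 to 0.335). Of the 10 genes with the lowest D, 2 were lower at day 3 with saline and 9 with RTD-1.

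**Figure D5:**
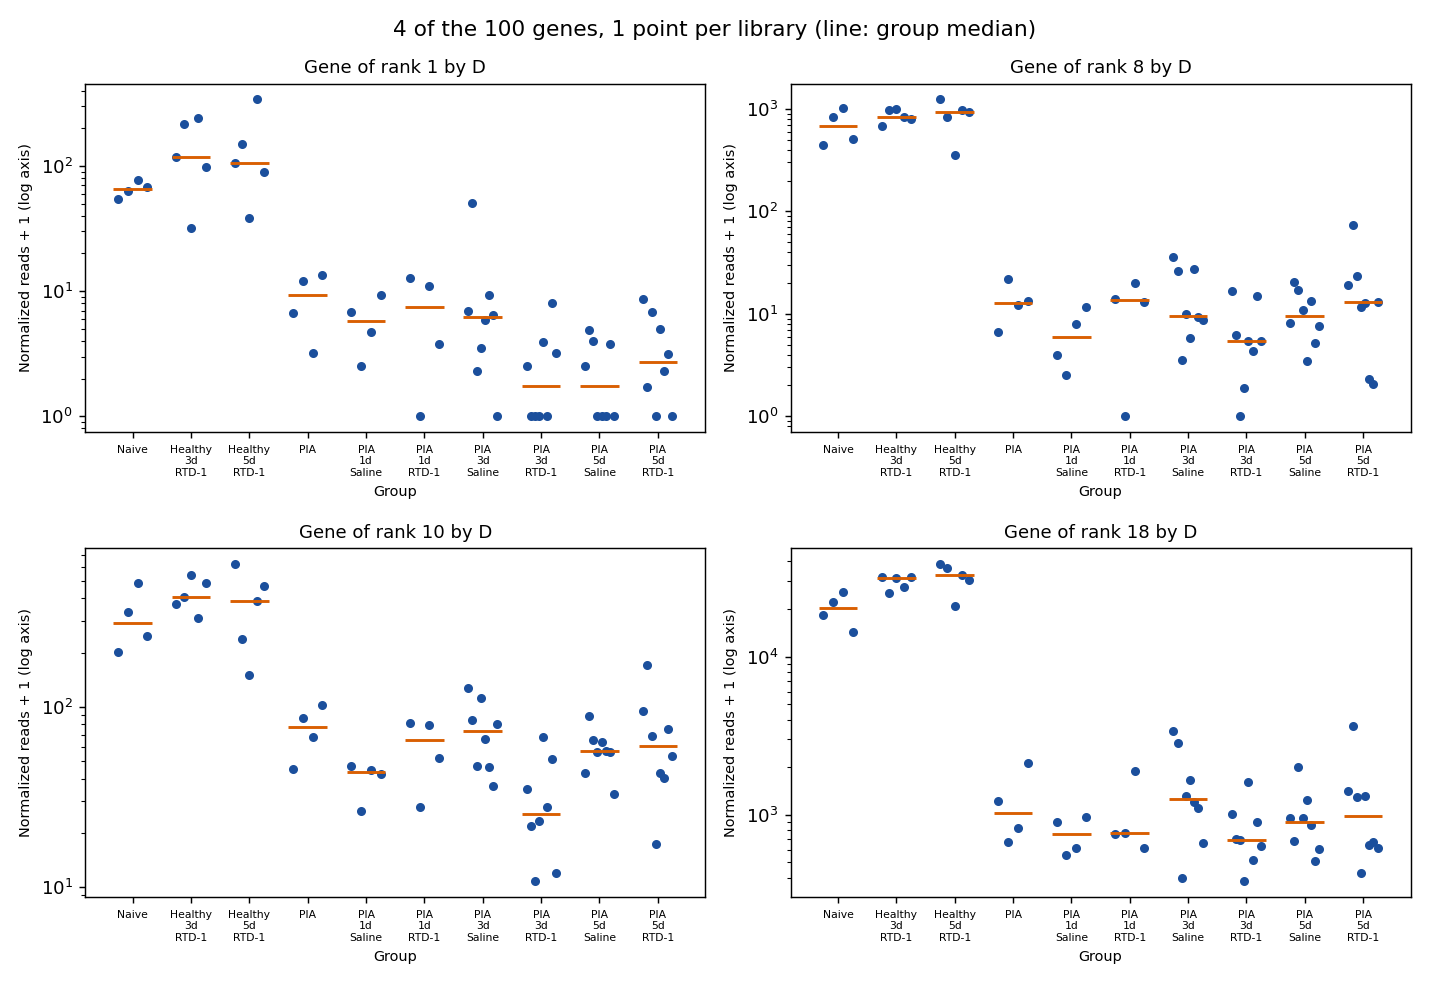
Normalized reads + 1 (log axis) in each of the 58 libraries by group, for the genes of rank 1, 8, 10 and 18 by D; lines are group medians. In every panel the naive and healthy points stand above most arthritic points, and for rank 1 the single high PIA_3d_Saline library, at 49.5 normalized reads, reaches above the lowest healthy libraries.

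In rats without arthritis the genes stood near their naive level in the median under RTD-1, given as a description since Naive entered the choice. The Healthy_3d_RTD-1 mean was above the naive mean in 79 of the 100 genes, with a median difference of 0.32 log2 units beside 0.30 for all genes. The share of all genes above naive was not counted. Single genes lay further off. The largest shortfall was -2.48, in rank 45, the next was -0.87, and the largest excess was 2.11. The 100 genes took 2.60% to 5.39% of reads in the 10 healthy RTD-1 libraries.

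Between the healthy groups, which the choice did not use, limma called 0 of the 100 genes from day 3 to day 5 of RTD-1, and 0% of all genes in either direction. At an unadjusted p under 0.05 there was none among the 100 either, against 0.475% of all genes. The median log2 change was -0.06, with 64 genes lower, against 0.04 for all genes. Replicate 3 of Healthy_5d_RTD-1 stood apart. It was the lowest of the 10 healthy libraries in 54.0% of the 100 genes. Among the other lost genes this share was 31.5%, and among all genes 12.2%. In 11 of the 100 genes it was more than 2-fold below the next. The same held in 13 of the 181 other lost genes and in 67 of all 13062 genes tested. The 100 genes took 2.60% of the reads of this library. Without it the median change from day 3 to day 5 was 0.07 and only 34 genes were lower. The 54 genes that were lowest in this library had a median change of -3.50 in the day 3 comparison of arthritic with healthy rats, and the other 46 had -3.29.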

How the data were processed

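Synovial RNA in 58 libraries was read on 1 end for 75 nt after stranded library preparation from total RNA, per the labels' protocols. The submitters' processing notes name HISAT and DESeq. Neither a build nor an annotation is given in the sources used here. The authors deposited 1 table of log2 values, 16880 rows with 1 lacking an identifier (at most 0.0137% of reads, left out). Its values are log2 of whole reads over 1 factor per library, with 0 reads held as 0.9, as found from the values (100% whole within a relative tolerance of 0.001).

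Reads were recovered and scaled to a factor of 5.75 megareads. The 13062 genes that reached 10 normalized reads in 4 or more libraries were tested with limma 3.58.1 in R 4.3.3 on log2(normalized reads + 1), trend and robust, in 1 fit of 10 group means. A fold change on this scale understates the change of genes with few reads. Calls are two-sided, with Benjamini-Hochberg adjusted p under 0.05 over all genes. The fit was tested on simulated data. Groups and replicate numbers came from titles. Libraries may not be separate animals, so p-values measure only the spread between these libraries, and each pair within a group differed by more than sampling noise (chi-square per degree of freedom at least 2.70). Floors cover counting error only.

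The 100 genes, the lists and the tests were chosen with earlier results of these data known. Genes to describe singly were those with the lowest D, the most naive reads or the largest called change, and any singled out later are said to be. Fixed marker lists could not be applied without symbols. Alternatives were other pseudocounts (0.5, 8), filters (none, 50), TMM scaling, limma voom, thinned reads, a replicate block, subsets of libraries and leaving out each library.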

Additional observations from a re-analysis of the deposited data

Results flagged for a closer look

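In groups of 4 to 8 libraries, a library was singled out where its gap to the nearest other was large for the range of its group (Dixon's test at 95%, on log2(normalized reads + 1)), for the median over the 100 genes and for 11 genes described singly. Of 118 groups examined, 9 had such a library, and chance gives about 1 in 20. A further 2 groups had 0 reads throughout and could not be examined.

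The median over the 100 genes against naive was lowest in replicate 3 of Healthy_5d_RTD-1, at -0.46 with the next at 0.25, and in replicate 5 of Healthy_3d_RTD-1, at 0.22 with the next at 0.33. Rank 2 had 1.59 normalized reads in replicate 2 of PIA_1d_Saline, where the next lowest library had 18.9. Rank 8 had 0 in replicate 2 of PIA_1d_RTD-1, with the next at 12.0. Rank 6 had 19.6 in replicate 7 of PIA_3d_RTD-1, with the next at 39.7. Rank 22 had 1.94 in replicate 4 of PIA_5d_RTD-1, with the next at 12.8.

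High values stood out in rank 45, with 56.8 normalized reads in replicate 5 of PIA_5d_RTD-1 where the next highest had 4.84, and with 0.887, a single read, in replicate 4 of PIA_3d_RTD-1 where all others had 0. Rank 57 had 28.0 in replicate 2 of PIA_3d_Saline, with the next at 8.35. What set these libraries apart was not tested.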

How the results depend on the processing

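Day 3 arthritic against healthy RTD-1 libraries kept 98 to 100 of the 100 genes lower under the alternatives run. The medians over the 100 genes kept their sign in the 5 comparisons with arthritic libraries, and between the healthy groups the sign turned without replicate 3 of Healthy_5d_RTD-1 (0.07). The count that moved was PIA_3d_Saline against PIA_1d_Saline, 0 of 100 as reported: pseudocount 0.5, a filter of 50 reads and leaving out the 3 deeper saline libraries each gave 1, and TMM scaling gave 6. Over all genes, pseudocount 0.5 called 18 of 13062 higher, the filter 19 of 9067, and leaving out the deeper libraries 33 of 13038. Among the 181 other lost genes they called 3, 5 and 3 higher. Leaving out 1 library gave 0 to 3, with 1 without replicate 2 of PIA_1d_Saline, 3 without replicate 3 and 2 without replicate 4 of PIA_3d_Saline. TMM scaling also raised the calls over all genes there from 8 lower and 15 higher to 159 and 267. Among the 181 other lost genes it raised the calls higher from 3 to 33. The cause was not tested. The replicate numbers were shared but did not pair the libraries (correlations of same-numbered libraries from -0.37 to 0.23). With the number as a replicate block this count was 3, beside 86 of 13062 genes tested and 21 of the 181 other lost genes called higher. Day 3 arthritic against healthy was 100 lower, beside 3412 of all genes tested and 172 of the other lost genes. Of the 100 genes the block called 0 in the other 4 comparisons. Where a gene has few reads, as in PIA_3d_RTD-1 replicate 6 with 21 genes at 0, depth limits any further fall.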
